A study of Oryza sativa with 18 samples.

Results

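The drought response of the hybrid rice Hanyou73 was set against the mean response of its parental lines, Hanhui3 and Huhan7B, in flag leaves at grain filling. Each genotype was sampled under drought, imposed by stopping irrigation early in grain filling, and in well-watered plants under the same field conditions. The length of the drought and the age of the plants are not given in the sources used here. This gave 6 groups of 3 libraries (Hanyou73, Hanhui3 and Huhan7B under drought, then the same lines in water), and all 18 of 18 libraries were used. Each library was made from a pool of flag leaves taken within a plot, so the p-values below reflect how far pools varied, not how far plots varied. The labels name no transgene, mutant or chemical agent in any group. The values are FPKM, fragments per kilobase of transcript scaled to library depth, and 22592 of the 38993 listed genes were tested, those at an FPKM of at least 1 in 3 or more libraries.

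The interaction of a gene is the response of Hanyou73 (drought minus water, on log2(FPKM + 1)) minus the mean of the parents' responses. It equals the difference between Hanyou73 and the parental mean under drought, called the drought side here, minus the same difference in water, called the water side. A positive interaction can therefore come from a hybrid that stood high under drought or from a hybrid that stood low in water, and the sides were kept apart throughout. A gene was called where limma's test, adjusted by the Benjamini-Hochberg method over all genes tested, gave a p under 0.05.

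As background, an F1 hybrid holds an allele from each parent, and a level away from the mean of the parents is described as non-additive expression. In drought, leaves accumulate abscisic acid. Its receptors then hold back type 2C protein phosphatases, which frees SnRK2 kinases to activate bZIP factors and their targets, among them dehydrins and other late embryogenesis abundant (LEA) proteins. A flag leaf that fills the grain also dismantles its chlorophyll and exports its nitrogen and sugars as it ages, and the enzymes of chlorophyll breakdown, with SGR (STAY-GREEN) at the first step, mark that programme.

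The libraries had an estimated depth of 13.3 to 16.4 M fragments. Pearson's r over genes was 0.982 to 0.989 for libraries of the same group and 0.837 to 0.957 for libraries of different groups. The genotype labels were checked with genes listed under 0.1 FPKM in all libraries of a single parent and at 5 or more in all those of the other. Of 46 such genes on in Hanhui3, 41 stood at 1 FPKM or more in all 6 hybrid libraries, and of 45 on in Huhan7B, 36 did. None of the Hanhui3 genes but 7 of the Huhan7B genes stood under 0.1 FPKM in all 6 hybrid libraries. The median hybrid level was 0.496 times the Hanhui3 level and 0.513 times the Huhan7B level. Of the light-harvesting genes that mark leaf mesophyll, CAB1R (Os09g0346500) averaged 1201 FPKM in droughted Hanyou73 and more in the other groups, while Lhcb1.1 and CP24, described below, averaged under 4 FPKM in droughted Hanyou73.

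The hybrid libraries stood apart from those of both parents in both conditions. The 100 most abundant genes took 22.8% to 25.5% of the FPKM in Hanyou73 libraries and 31.3% to 39.2% in parental libraries. The median tested gene stood at 12.6 FPKM in droughted Hanyou73 and 11.1 to 11.2 FPKM in watered Hanyou73, against 8.92 to 10.3 FPKM in parental libraries. Clock genes differed as well, although the labels state a common time of day. LHY (Os04g0583900), annotated as REVEILLE 2, a morning-phased MYB factor, averaged 71.4 ± 1.76 FPKM in droughted Hanyou73, against 0.307 ± 0.156 in droughted Hanhui3 and 0.377 ± 0.0987 in droughted Huhan7B (SD, n = 3). CCA1 (Os08g0157600), of the same family, averaged 1.8 ± 0.687 FPKM in droughted Hanyou73, against 46.2 ± 2.61 in droughted Hanhui3 and 34.9 ± 1.96 in droughted Huhan7B (SD, n = 3). OsPCL1 (Os01g0971800), an evening-complex factor, averaged 357 ± 9.12 FPKM in droughted Hanyou73, against 6.11 ± 0.276 and 23 ± 1.4 in droughted Hanhui3 and Huhan7B (SD, n = 3). These offsets were present in water too, with a water side of 3.43 for LHY, -3.06 for CCA1 and 5.61 for OsPCL1 in log2. Their part in the interactions below was not tested.

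The interaction was called for 13170 genes, or 58.3% of those tested. It was higher in the hybrid for 8757 genes (38.8%) and lower for 4413 (19.5%), and the median over all tested genes was 0.17 in log2. Median-ratio scaling, which sets a typical gene equal between libraries, moved that median to 0.02 and gave 5861 higher and 5995 lower calls, so that 49.4% of calls were higher in place of 66.5%. The excess of higher calls thus depends on the scaling. Calls were tested against 0 and not against the median of 0.17. At least a 2-fold difference was reached by 1751 genes higher (7.75%) and 1245 lower (5.51%).

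The response was called for 70.7% of tested genes in Hanyou73 (45% rose), 53.6% in Hanhui3 (35.1% rose), 53.3% in Huhan7B (21.2% rose) and 55.3% for the parental mean. Of the 1751 genes with a higher interaction of at least 2-fold, 745 rose in Hanyou73 while the mean of the parents also rose, 654 rose while the parental mean was not called, and 286 rose while it fell. Of the 1245 lower ones, 509 fell in Hanyou73 while the parental mean also fell, 430 fell while it was not called, and 244 fell while it rose. These counts describe the same fit that gave the interaction and are no separate test.

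On the drought side Hanyou73 differed from the parental mean in 16417 genes (72.7%), 13185 higher (58.4%) and 3232 lower (14.3%). On the water side it differed in 15192 genes (67.2%), 9878 higher (43.7%) and 5314 lower (23.5%). Every hybrid library lay above every parental library of its condition for 41.7% of genes under drought and 28.1% in water, and below for 8.26% under drought and 12.8% in water. These shares are on the deposited scale. Median-ratio scaling moved the median drought side from 0.31 to 0.03 and the median water side from 0.14 to 0.02. The excess of higher values on both sides thus depends on the scaling. Among the genes with a higher interaction, 2952 were called on the drought side alone, 1242 on the water side alone, 2839 on both with the same sign, 1595 on both with opposite signs, and 129 on neither. Among those with a lower interaction, 357 were called on the drought side alone, 1099 on the water side alone, 2333 on both with the same sign, 580 on both with opposite signs, and 44 on neither. A call on a single side does not show that the sides differ in size, which was tested by itself. The drought side was the larger of the pair in 5666 called genes, 4886 of them with a higher interaction, and the water side in 5052, 3123 of them with a lower interaction. For 2452 called genes no difference in size was shown.

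A stricter split asked for a difference of at least 1 in log2 on a single side and under 0.5 on the other. It placed 937 genes (4.15% of those tested) on the drought side, 820 with a higher and 117 with a lower interaction. It placed 1005 genes (4.45%) on the water side, where 306 had a higher interaction, from a hybrid that was low in water, and 699 a lower one, from a hybrid that was high in water. The limit of 0.5 has no natural break. With a drought side of at least 1, 169 genes had a water side of 0.4 to 0.5 and 152 had 0.5 to 0.6. With a water side of at least 1, 208 had a drought side of 0.4 to 0.5 and 224 had 0.5 to 0.6. OsPDF1A (Os01g0555800), a peptide deformylase, lay just inside with a drought side of 1.16 and a water side of 0.49, and OsBBX3 (Os02g0178100), a B-box zinc finger protein, just outside with -1.12 and -0.50.

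**Figure D1:**
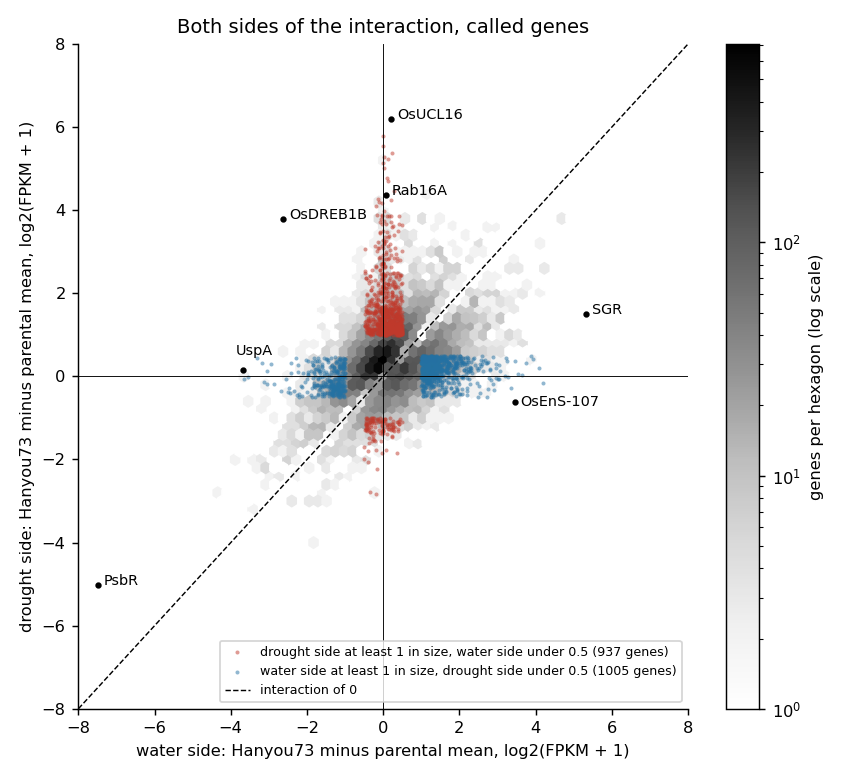
Each called gene is placed by its water side (horizontal axis) and its drought side (vertical axis), both Hanyou73 minus the parental mean on log2(FPKM + 1); grey hexagons count genes on a log scale, and coloured points are the stricter split. The 937 genes of the drought class lie mostly above 0, and the 1005 genes of the water class lie mostly to the right of 0, where the watered hybrid was high.

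The gene lists below are to be read beside all tested genes, of which 58.3% were called, 38.8% higher and 19.5% lower. Over all tested genes the median water side was 0.14 and the median drought side 0.31. Dehydrins and other LEA proteins, which protect cells that lose water, had the widest gap between the sides of all lists with at least 5 tested genes. Of 24 LEA and dehydrin genes tested, 20 had a higher interaction and 0 a lower one. Their median was 1.47 against 0.17 for all tested genes, with a median drought side of 2.16 and a median water side of 0.15. The drought side was the larger in 19 of the 24 and the water side in 1. With median-ratio scaling 19 were higher and 1 lower.

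Rab16A (Os11g0454300), a dehydrin, stood at 158, 148 and 144 FPKM in droughted Hanyou73, against 11.6, 10.1 and 6.64 in droughted Hanhui3 and 3.58, 4.52 and 4.48 in droughted Huhan7B. In water it was listed at 0, 0 and 0.17 in Hanyou73 and at 0 in all 6 parental libraries. All droughted hybrid libraries lay above all droughted parental ones while the watered groups overlapped at 0. The interaction was 4.30 ± 0.17 (SE, adjusted p = 1.26e-11), with a drought side of 4.38 and a water side of 0.08. Every line rose, by 7.16 in Hanyou73, 3.35 in Hanhui3 and 2.37 in Huhan7B, and since the watered levels are near 0 these log2 values depend on the pseudocount.

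RAB16B (Os11g0454200), the neighbouring dehydrin of this cluster, stood at 251, 234 and 243 FPKM in droughted Hanyou73, against 18.5, 18 and 21.1 in droughted Hanhui3 and 17.9, 16.7 and 15.4 in droughted Huhan7B. The watered groups averaged at most 0.6 FPKM. The interaction was 3.15 ± 0.14 (SE), and 1.77 with a pseudocount of 0.1. RAB16C (Os11g0454000) averaged 30.7 ± 2.15 FPKM in droughted Hanyou73, against 2.63 ± 0.282 in droughted Hanhui3 and 7.87 ± 1.15 in droughted Huhan7B (SD, n = 3), with an interaction of 2.49 ± 0.13 (SE). RAB16D (Os11g0453900) did not share this pattern. It averaged 3.81 ± 1.23 FPKM in droughted Hanyou73 and 3.53 ± 0.666 in droughted Hanhui3, against 0.613 ± 0.268 in droughted Huhan7B (SD, n = 3), and its interaction of 0.76 ± 0.20 lost its call with a pseudocount of 0.1 (limma, adjusted p = 0.0942). The RAB16 genes are close copies, and reads that fit several of them can be split differently by the authors' estimate.

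OsLEA3-1 (Os05g0542500), a group 3 LEA protein widely used as a drought marker in rice, stood at 153, 144 and 141 FPKM in droughted Hanyou73, against 1.58, 1.69 and 1.24 in droughted Hanhui3 and 30.4, 39.9 and 43.1 in droughted Huhan7B. In water it stood at 1.16, 1.29 and 0.88 FPKM in Hanyou73, against at most 0.12 in Hanhui3 and 0.18 in Huhan7B. The hybrid was above both parents in both conditions, and the parents differed from each other under drought. The interaction was 2.90 ± 0.15 (SE, adjusted p = 2.8e-10), 1.10 with a pseudocount of 0.1 and 1.82 when the parents' FPKM were averaged before taking logs. OsLEA14 (Os01g0705200) stood at 65.2, 60.2 and 59.8 FPKM in droughted Hanyou73, against 1.06, 1.32 and 0.39 in droughted Hanhui3 and 1.62, 1.9 and 1.52 in droughted Huhan7B, and at 0.69, 0.66 and 0.67 in watered Hanyou73. No parental library reached 2 FPKM in either condition, and the interaction was 4.08 ± 0.17 (SE).

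**Figure D2:**
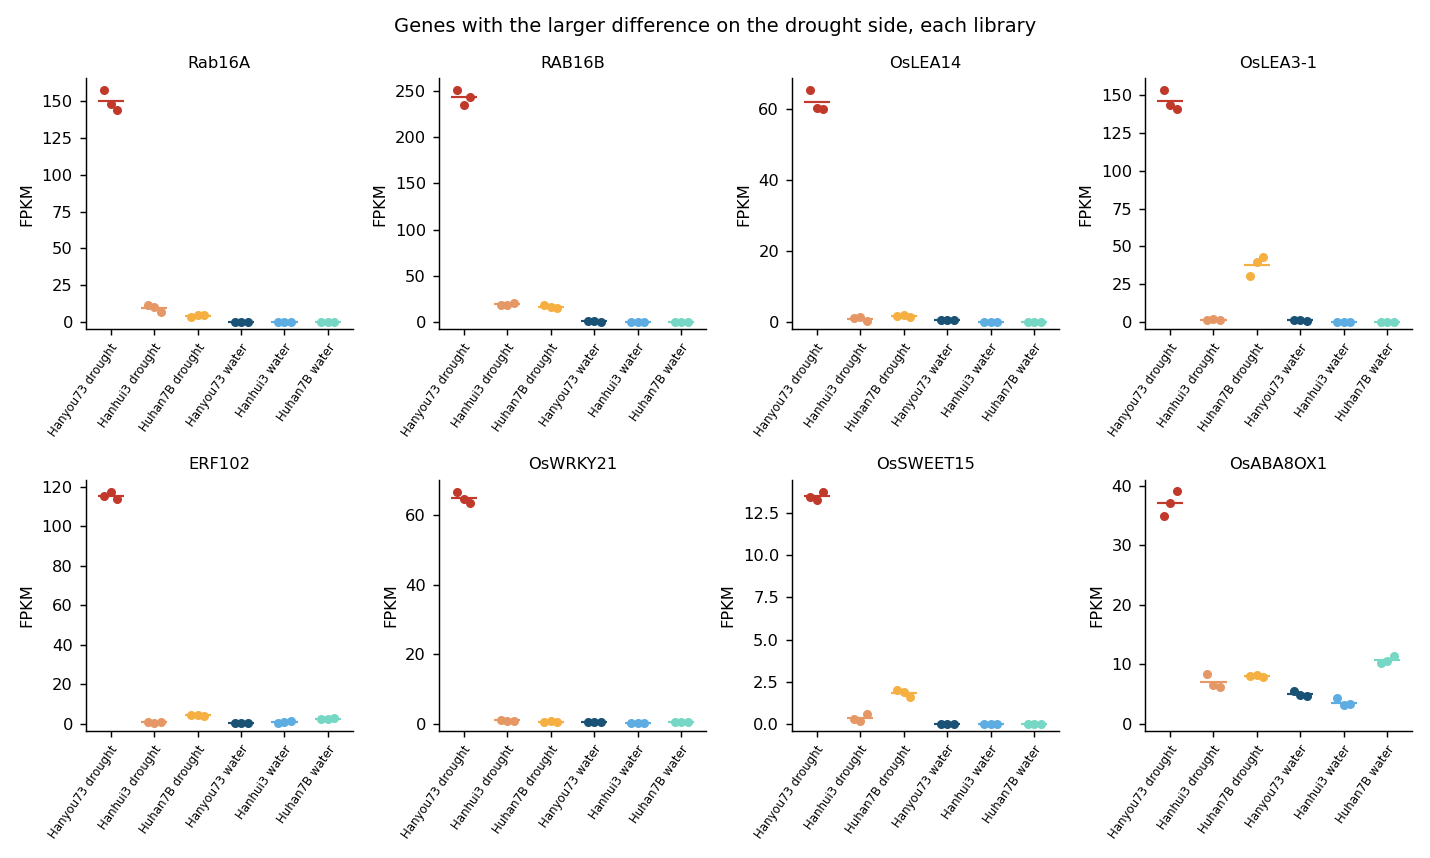
FPKM of 8 genes in each library (points) with the group mean (line), for droughted and then watered Hanyou73, Hanhui3 and Huhan7B. In every panel the 3 droughted Hanyou73 libraries lie above all the others; droughted Huhan7B stands at 30.4 to 43.1 FPKM in the OsLEA3-1 panel.

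Genes that make, break down and sense abscisic acid moved in both directions. Of 14 genes of its synthesis and breakdown, 6 were higher and 5 lower (4 and 5 with median-ratio scaling). OsABA8OX1 (Os02g0703600), the hydroxylase that inactivates abscisic acid, stood at 34.9, 37 and 39.1 FPKM in droughted Hanyou73, against 8.28, 6.52 and 6.22 in droughted Hanhui3 and 8.0, 8.21 and 7.91 in droughted Huhan7B. In water it stood at 5.43, 4.85 and 4.63 FPKM in Hanyou73, 4.27, 3.15 and 3.24 in Hanhui3 and 10.1, 10.5 and 11.3 in Huhan7B, so that the hybrid lay between its parents. The interaction was 2.45 ± 0.12 (SE, adjusted p = 2.36e-10).

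OsNCED1 (Os03g0645900, annotated as NCED3) cleaves a carotenoid to make the precursor of abscisic acid. It averaged 10.6 ± 0.98 FPKM in droughted Hanyou73, against 1.84 ± 0.133 in droughted Hanhui3 and 3.96 ± 0.497 in droughted Huhan7B (SD, n = 3). Its interaction was 1.65 ± 0.15 (SE), but the parents responded in opposite directions. The hybrid's response of 1.63 exceeded that of Hanhui3 (-1.30), and its difference of 0.36 ± 0.18 (SE) from that of Huhan7B (1.28) was not called (limma, adjusted p = 0.0911). OSNCED3 (Os07g0154100) stayed under 3 FPKM in each group and lost its call with a pseudocount of 0.1 (limma, adjusted p = 0.485). OsABA1 (Os04g0448900), a zeaxanthin epoxidase upstream in the same route, ran the other way, with 184 ± 4.64 FPKM in droughted Hanyou73, 267 ± 1.91 in droughted Hanhui3 and 557 ± 7.66 in droughted Huhan7B (SD, n = 3). In water it averaged 1230.0 ± 22.3 FPKM in Hanyou73, against 424 ± 5.95 in Hanhui3 and 603 ± 8.34 in Huhan7B (SD, n = 3). Hanyou73 was thus the highest line in water and the lowest under drought, and the interaction was -2.35 ± 0.03 (SE). A further gene annotated as zeaxanthin epoxidase, Os11g0127800, had an interaction of 1.11 ± 0.08 (SE). Its water side was -4.12 and its drought side -3.01, with the hybrid below both parents in both conditions.

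Of 20 abscisic acid signalling genes, 9 were higher and 5 lower (8 and 7 with median-ratio scaling). BZIP12 (Os01g0867300), a bZIP factor of this pathway, averaged 93.8 ± 1.38 FPKM in droughted Hanyou73, against 12.4 ± 0.66 in droughted Hanhui3 and 9.55 ± 0.753 in droughted Huhan7B (SD, n = 3), with an interaction of 1.91 ± 0.09 (SE). The receptor gene OsPYL-RCAR3 (Os02g0255500) had an interaction of 1.39 ± 0.12 (SE) from a low watered hybrid, with a water side of -1.65 and a drought side of -0.26. The SnRK2 kinase SAPK4 (Os01g0869900) had 1.34 ± 0.07 (SE) with a drought side of 1.11. Its relative SAPK7 (Os04g0432000) fell in Hanyou73, with a response of -0.85, and rose by 1.27 in Hanhui3 and 0.74 in Huhan7B, for an interaction of -1.86 ± 0.12 (SE). SAPK7 was higher in the hybrid in both conditions, at 41.6 ± 0.671 FPKM under drought and 76.2 ± 3.6 in water (SD, n = 3), while the parental means lay between 3.75 and 18.1 FPKM.

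Of 94 type 2C protein phosphatases, 60.6% were called, near the 58.3% of all tested genes. In this list 43 were higher and 14 lower, a split that became 28 and 24 with median-ratio scaling. OsPP2C51 (Os05g0572700), a member known to be induced by abscisic acid, averaged 12.5 ± 1.62 FPKM in droughted Hanyou73, against 0.75 ± 0.305 in droughted Hanhui3 and 1.68 ± 0.0473 in droughted Huhan7B (SD, n = 3), and at most 0.0467 FPKM on average in water. OsPP2C30 (Os03g0268600) averaged 86.4 ± 6.0 FPKM in droughted Hanyou73, against 9.83 ± 0.397 and 9.67 ± 0.721 in droughted Hanhui3 and Huhan7B (SD, n = 3). Their interactions were 2.68 ± 0.14 and 1.56 ± 0.12 (SE).

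Among 17 established drought marker genes, 13 had a higher interaction, 2 a lower one and 2 were not called, with a median of 1.49. The lower pair was DREB2A (Os01g0165000), a dehydration-responsive factor, at -0.61 ± 0.12, and OsNAC6 (Os01g0884300), a stress NAC factor, at -0.50 ± 0.06 (SE). BZIP46 (Os06g0211200), a bZIP factor, at 0.22 ± 0.15, and OsJRL (Os01g0348900), a salt-induced lectin-like protein, at 0.49 ± 0.22 (SE), were not called. BZIP23 (Os02g0766700), another abscisic acid bZIP factor, had an interaction of 0.84 ± 0.09 (SE), and OsP5CS (Os05g0455500), which makes proline, 0.58 ± 0.07 (SE).

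OsDREB1B and ERF102, factors of the DREB and ERF families, had the largest interactions in size among the named genes. OsDREB1B (Os09g0522000), a factor that binds dehydration-responsive promoter elements, stood at 208, 203 and 198 FPKM in droughted Hanyou73, against 4.99, 5.45 and 5.79 in droughted Hanhui3 and 31.9, 35.1 and 32.1 in droughted Huhan7B. In water it was the lowest line, with 2.12, 3.01 and 2.85 FPKM in Hanyou73, against 22.8, 19.6 and 18.2 in Hanhui3 and 20.9, 22.2 and 25.2 in Huhan7B. The hybrid lay above all parental libraries under drought and below all of them in water. The interaction of 6.41 ± 0.12 (SE, adjusted p = 4.09e-15) was the sum of a drought side of 3.79 and a water side of -2.62 with its sign turned.

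OsDREB1A (Os09g0522200), its close relative, belonged to the water side alone. It stood at 21, 18.5 and 12.9 FPKM in droughted Hanyou73, against 8.51, 9.33 and 7.92 in droughted Hanhui3 and 36.5, 35.6 and 38.3 in droughted Huhan7B. Water levels were 1.02, 1.07 and 0.55 FPKM in Hanyou73, 31.5, 27.3 and 23.5 in Hanhui3 and 17.3, 18 and 19.7 in Huhan7B. The hybrid lay between its parents under drought and below both in water. The interaction of 3.58 ± 0.18 (SE) came with a drought side of -0.07, which was not called (adjusted p = 0.649).

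ERF102 (Os09g0457900), an ethylene response factor, stood at 116, 118 and 114 FPKM in droughted Hanyou73, against 0.7, 0.33 and 0.86 in droughted Hanhui3 and 4.44, 4.5 and 3.86 in droughted Huhan7B. In water it stood at 0.26, 0.5 and 0.17 FPKM in Hanyou73, 0.57, 1.06 and 1.15 in Hanhui3 and 2.14, 2.14 and 2.86 in Huhan7B. Only the droughted hybrid exceeded 5 FPKM, and the interaction was 6.28 ± 0.18 (SE). Over the whole list, 28 of 65 DREB and ERF genes were higher and 17 lower, with 19 and 5 at 2-fold or more and a median of 0.33. The called share was 69.2%, against 58.3% of all tested genes, of which 38.8% were higher and 19.5% lower. At 2-fold or more, 7.75% of all tested genes were higher and 5.51% lower.

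WRKY and NAC factors ran the other way as groups, and mostly through the watered hybrid. Of 71 WRKY genes, 16 were higher and 31 lower, with a median water side of 0.86 and a median drought side of 0.49. Of 67 NAC genes, 14 were higher and 31 lower, with a median water side of 0.71 and a median drought side of 0.36. Over all tested genes these medians were 0.14 and 0.31, so the NAC drought side was near the general level. Single members departed from this. OsWRKY21 (Os01g0821600) stood at 66.8, 64.8 and 63.5 FPKM in droughted Hanyou73, against 1.07, 0.87 and 0.85 in droughted Hanhui3, 0.62, 0.69 and 0.44 in droughted Huhan7B and at most 0.6 FPKM in any watered library. Its interaction of 5.11 ± 0.11 (SE) lay on the drought side. SNAC1 (Os03g0815100), a NAC factor known for stomatal closure under drought in rice, averaged 413 ± 13.4 FPKM in droughted Hanyou73, against 6.74 ± 0.714 in droughted Hanhui3 and 43.6 ± 2.43 in droughted Huhan7B (SD, n = 3). It was already high in watered Hanyou73, at 161 ± 6.18 FPKM, against 9.87 ± 0.983 in watered Hanhui3 and 37.3 ± 1.73 in watered Huhan7B (SD, n = 3), and its interaction was 1.49 ± 0.09 (SE).

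Several of the largest drought-side interactions belonged to proteins of the cell wall and cell surface. OsUCL16 (Os06g0218600), a blue copper protein of the uclacyanin type, stood at 87.4, 84.8 and 84.6 FPKM in droughted Hanyou73. It was at most 0.5 FPKM in droughted Hanhui3, 0 in droughted Huhan7B and 0.63 or less in every watered library. The interaction was 5.98 ± 0.18 (SE, adjusted p = 4.7e-13). The lipid transfer proteins OsLTPd6 (Os04g0415800) and OsLTP2.5 (Os05g0550600) had 5.55 ± 0.30 and 4.67 ± 0.17 (SE). The peroxidase prx71 (Os05g0135500) had 5.25 ± 0.11, the arabinogalactan protein OsAGP12 (Os01g0110200) 4.98 ± 0.14 and the COBRA-like protein BC1L7 (Os07g0604400) 4.58 ± 0.12 (SE). All 5 genes averaged over 25 FPKM in droughted Hanyou73 and under 2.3 FPKM in every other group. From such low levels the size depends on the pseudocount, and with 0.1 in place of 1 the interaction was 7.80 for OsAGP12 and 7.06 for BC1L7.

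The cellulose synthases of the secondary wall, named after their values were seen, behaved alike. CESA7 (Os10g0467800) stood at 12.7, 12.8 and 12.3 FPKM in droughted Hanyou73 and at no more than 0.06 FPKM in any other library. BC6 (Os09g0422500), annotated as subunit 9, averaged 9.48 ± 0.108 FPKM in droughted Hanyou73, against 0.22 ± 0.115 in droughted Hanhui3 and 0 in droughted Huhan7B (SD, n = 3). OsCesA4 (Os01g0750300) averaged 15.3 ± 0.93 FPKM in droughted Hanyou73, against 0.45 ± 0.118 in droughted Hanhui3 and 1.18 ± 0.139 in droughted Huhan7B (SD, n = 3). The laccases OsLAC26 (Os11g0708100), OsLAC5 (Os01g0842500) and Lac (Os03g0273200), which polymerise lignin, averaged 18.1, 15.4 and 14 FPKM in droughted Hanyou73 and at most 0.22 FPKM in any other group. Their interactions were 4.23 ± 0.15, 3.95 ± 0.10 and 3.88 ± 0.10 (SE), and 7.26, 6.64 and 6.99 with a pseudocount of 0.1. ONAC007 (Os06g0131700), annotated as NAC43, in Arabidopsis a secondary wall regulator, averaged 13.5 ± 1.22 FPKM in droughted Hanyou73, against 1.08 ± 0.171 in droughted Hanhui3 and 0.2 ± 0.0529 in droughted Huhan7B (SD, n = 3), with an interaction of 3.18 ± 0.16 (SE).

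Several of these genes are also markers of stem and vascular tissue. Of 25 such markers tested, 18 were higher and 3 lower, with a median drought side of 1.35 and a median water side of 0.03. Over all 48 listed markers the summed level was 190.4 to 193.4 FPKM in droughted Hanyou73, 45.2 to 49.3 in droughted Hanhui3 and 26.7 to 29.3 in droughted Huhan7B. In water the sums were 97.6 to 104.3 FPKM in Hanyou73, 27.4 to 29.0 in Hanhui3 and 71.6 to 79.2 in Huhan7B. The listed markers at 0 in a whole group numbered 16 in droughted Hanyou73 and 19 to 28 in the others. In pooled tissue a different share of vascular cells and a different level per cell cannot be told apart, and the part of tissue make-up in the drought-side calls was not tested.

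The list of lignin and phenylpropanoid genes leaned the other way. Of 68 tested, 14 were higher and 32 lower, with a median of -0.32. GH2 (Os02g0187800), a cinnamyl alcohol dehydrogenase, averaged 241 ± 11.7 FPKM in watered Hanyou73, against 4.66 ± 0.436 in watered Hanhui3 and 122 ± 2.68 in watered Huhan7B (SD, n = 3). Its interaction was -2.27 ± 0.13 (SE), and -1.06 when the parents' FPKM were averaged before logs.

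Defence proteins leaned to higher interactions as well. Of 61 tested, 42 were higher, 32 of them at least 2-fold, and 6 lower, with a median of 1.10, a median drought side of 0.98 and a median water side of 0.02. JIOsPR10 (Os03g0300400), a pathogenesis-related protein induced by jasmonate, stood at 50.9, 41.4 and 50.4 FPKM in droughted Hanyou73 and at 0.49 FPKM or less in every other library, for an interaction of 5.14 ± 0.16 (SE). OsPR4c (Os11g0592000), a chitin-binding defence protein, averaged 112 ± 5.77 FPKM in droughted Hanyou73, against 3.65 ± 1.91 in droughted Hanhui3 and 4.2 ± 0.464 in droughted Huhan7B (SD, n = 3). The Bowman-Birk trypsin inhibitors came from the water side instead. RBBI2-2 (Os01g0123900) averaged 2.28 ± 0.366 FPKM in watered Hanyou73, against 288 ± 15.3 in watered Hanhui3 and 24.1 ± 0.577 in watered Huhan7B (SD, n = 3). Its interaction of 3.82 ± 0.08 (SE) had a water side of -4.70 and a drought side of -0.88. RBBI2-1 (Os01g0124000), at 2.33 ± 0.15 (SE), dropped to 0.94 when the parents' FPKM were averaged before logs and was 5.51 with a pseudocount of 0.1, and reads shared between these close copies make single values uncertain.

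Genes of sugar transport and storage were found on both sides. OsSWEET15 (Os02g0513100), a sucrose exporter known in grain filling and stress, stood at 13.5, 13.3 and 13.8 FPKM in droughted Hanyou73, against 0.25, 0.16 and 0.55 in droughted Hanhui3 and 2.01, 1.9 and 1.59 in droughted Huhan7B, and was listed at 0 in all 9 watered libraries. The interaction was 2.92 ± 0.12 (SE). OsSWEET4 (Os02g0301100) and 11N3 (Os11g0508600, annotated as SWEET14), also sugar transporters, ran the other way at -1.68 ± 0.07 and -1.68 ± 0.15 (SE), with a high watered hybrid. Of 26 sucrose synthesis and transport genes, 13 were higher and 5 lower, with the drought side the larger in 8 and the water side in 8. In this list 69.2% were called, against 58.3% of all tested genes. Of 11 raffinose and galactinol genes, 8 were higher and 2 lower, with 5 larger on each side. OsGolS1 (Os03g0316200) and wsi76 (Os07g0687900), galactinol synthases that start raffinose synthesis, averaged 55.7 ± 1.34 and 30.6 ± 0.171 FPKM in droughted Hanyou73 (SD, n = 3). OsGolS1 averaged 11.8 ± 1.03 in droughted Hanhui3 and 4.89 ± 0.924 in droughted Huhan7B, and wsi76 3.1 ± 0.232 in droughted Hanhui3 and 6.83 ± 0.518 in droughted Huhan7B (SD, n = 3). Their interactions were 1.85 ± 0.15 and 1.80 ± 0.21 (SE).

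The 117 genes of the lower drought class were low in the droughted hybrid. PAP2 (Os09g0133600), a plastid lipid-associated protein, stood at 256, 246 and 261 FPKM in droughted Hanyou73, against 579, 598 and 599 in droughted Hanhui3 and 622, 649 and 632 in droughted Huhan7B. In water it stood at 598, 554 and 613 FPKM in Hanyou73, 428, 442 and 423 in Hanhui3 and 472, 471 and 466 in Huhan7B. The hybrid was the lowest line under drought and the highest in water, with an interaction of -1.65 ± 0.04 (SE). Os04g0612500, annotated as a proline-rich protein, averaged 1.64 ± 0.266 FPKM in droughted Hanyou73, against 27.4 ± 2.89 in droughted Hanhui3 and 11.2 ± 0.711 in droughted Huhan7B (SD, n = 3), with -2.62 ± 0.14 (SE). NRT2.4 (Os01g0547600), a nitrate transporter, had -1.81 ± 0.19, OsAHL2 (Os09g0491708), an AT-hook nuclear protein, -1.71 ± 0.07, and the beta-glucosidase Os9bglu31 (Os09g0511600) -1.65 ± 0.25 (SE). Os03g0233000, annotated as a mitochondrial calcium uniporter, had -2.06 ± 0.17, and Os07g0656700, with no annotated function, -2.46 ± 0.14 (SE). With a pseudocount of 0.1 the values were -3.25 for NRT2.4 and -3.73 for Os03g0233000.

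Several light-harvesting genes shared this direction, most of them with a hybrid that was low in both conditions. Lhcb1.1 (Os01g0720500), a chlorophyll-binding protein of photosystem II, stood at 4.27, 2.78 and 3.85 FPKM in droughted Hanyou73, against 293, 273 and 287 in droughted Hanhui3 and 84.1, 88.7 and 99.3 in droughted Huhan7B. In water it stood at 11.7, 10.2 and 10.1 FPKM in Hanyou73, 145, 139.9 and 129.8 in Hanhui3 and 18.8, 18.9 and 18.4 in Huhan7B. Every hybrid library lay below every parental library, and the interaction was -2.97 ± 0.12 (SE). CAB1R had -2.06 ± 0.07, CabE (Os09g0296800), whose water side was 0.49, -1.60 ± 0.08 and Os04g0457100, annotated as CP24, -2.25 ± 0.19 (SE). PsbR (Os07g0147500), a photosystem II subunit, went the other way at 2.46 ± 0.08 (SE), yet stood at 279.6, 269 and 280.2 FPKM in droughted Hanyou73, against 12417, 12201 and 12573 in droughted Hanhui3 and 6877, 6526 and 6433 in droughted Huhan7B. A single genome build is named in the submitters' processing notes, and the part of read mapping in offsets of this size between lines was not tested. Across 62 photosystem and light-harvesting genes, 28 were higher and 14 lower (24 and 20 with median-ratio scaling). In this list 67.7% were called, against 58.3% of all tested genes. As a list they lay under the parental mean on both sides, with a median drought side of -1.08 and a median water side of -1.27. Single genes varied, with 17 called higher and 35 lower on the drought side, and 11 higher and 38 lower on the water side.

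On the water side, genes of chlorophyll breakdown were high in the watered hybrid. Of 14 tested, 10 had a lower interaction and 2 a higher one, with a median of -1.07. Their median water side was 1.33 and their median drought side 0.34, against 0.14 and 0.31 over all tested genes, and the water side was the larger in 10.

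SGR (Os09g0532000), which takes magnesium from chlorophyll, stood at 76.3, 70.8 and 73.5 FPKM in droughted Hanyou73, against 5.42, 4.4 and 6.21 in droughted Hanhui3 and 103, 109.6 and 114 in droughted Huhan7B. The watered leaves held 552, 550.2 and 532 FPKM in Hanyou73, 3.88, 1.9 and 3.27 in Hanhui3 and 46.5, 44.5 and 48 in Huhan7B. The watered hybrid exceeded every other library, while under drought it lay between its parents. SGR fell in Hanyou73, with a response of -2.87, and rose by 0.68 in Hanhui3 and 1.21 in Huhan7B, for an interaction of -3.82 ± 0.17 (SE, adjusted p = 4.1e-11).

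Os02g0705100, annotated as a pheophytinase, which removes the phytol tail, stood at 69.7, 65.2 and 69.4 FPKM in droughted Hanyou73, against 78.5, 78.2 and 79.6 in droughted Hanhui3 and 48.4, 55.2 and 56.6 in droughted Huhan7B. These levels were close, while the watered leaves held 478, 453 and 472 FPKM in Hanyou73, 177, 159 and 148 in Hanhui3 and 51.6, 51.3 and 54.3 in Huhan7B. The interaction was -2.26 ± 0.07 (SE), with a drought side of 0.07. The red chlorophyll catabolite reductases OsRCCR2 (Os10g0389300) and OsRCCR1 (Os10g0389200), which act further down, had -2.40 ± 0.18 and -1.92 ± 0.08 (SE). The oxygenase that opens the ring, OsPAO (Os03g0146400), had -1.88 ± 0.04, the chlorophyll b reductase NYC1 (Os01g0227100) -1.05 ± 0.05 and NYC3 (Os06g0354700) -1.31 ± 0.10 (SE), these last 3 named after their values were seen. Of 23 chlorophyll synthesis genes, 10 were higher and 7 lower (8 and 8 with median-ratio scaling), and 73.9% were called, against 58.3% of all tested genes. OsChlH (Os03g0323200), a subunit of the enzyme that inserts magnesium, had -1.25 ± 0.04 (SE) and averaged 64 ± 2.36 FPKM in droughted Hanyou73, against 653 ± 19.6 in droughted Hanhui3 and 642 ± 17.4 in droughted Huhan7B (SD, n = 3).

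Of 47 senescence protease and autophagy genes, 12 were higher and 13 lower, with a median of 0.01 against 0.17 for all tested genes. Median-ratio scaling gave 6 higher and 18 lower. In this list 53.2% were called, against 58.3% of all tested genes. The list thus had no clear lean, and the genes that follow lie outside it. They were named for the size of their interactions, which were lower. OsCV (Os05g0575000), CHLOROPLAST VESICULATION, which destabilises chloroplasts in ageing and stressed leaves, stood at 52.4, 52.1 and 49.8 FPKM in droughted Hanyou73, against 10.9, 12.6 and 8.24 in droughted Hanhui3 and 126, 118 and 118 in droughted Huhan7B. Water levels were 96.3, 105 and 109.7 FPKM in Hanyou73, 1.62, 5.37 and 4.51 in Hanhui3 and 12.1, 5.98 and 13.8 in Huhan7B. It fell in the hybrid and rose in each parent, with an interaction of -3.40 ± 0.35 (SE). ONAC103 (Os07g0683200, annotated as NAC58) stood at 12.9, 12.1 and 11.8 FPKM in droughted Hanyou73, against 0.05, 0.25 and 0 in droughted Hanhui3 and 43.1, 50.6 and 52.4 in droughted Huhan7B. Water levels were 127, 125 and 125 FPKM in Hanyou73, 0.87, 0.63 and 0.23 in Hanhui3 and 23.1, 23.4 and 23.4 in Huhan7B, and the interaction was -3.52 ± 0.15 (SE). ONAC085 (Os05g0194500) had -2.88 ± 0.16 (SE).

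**Figure D3:**
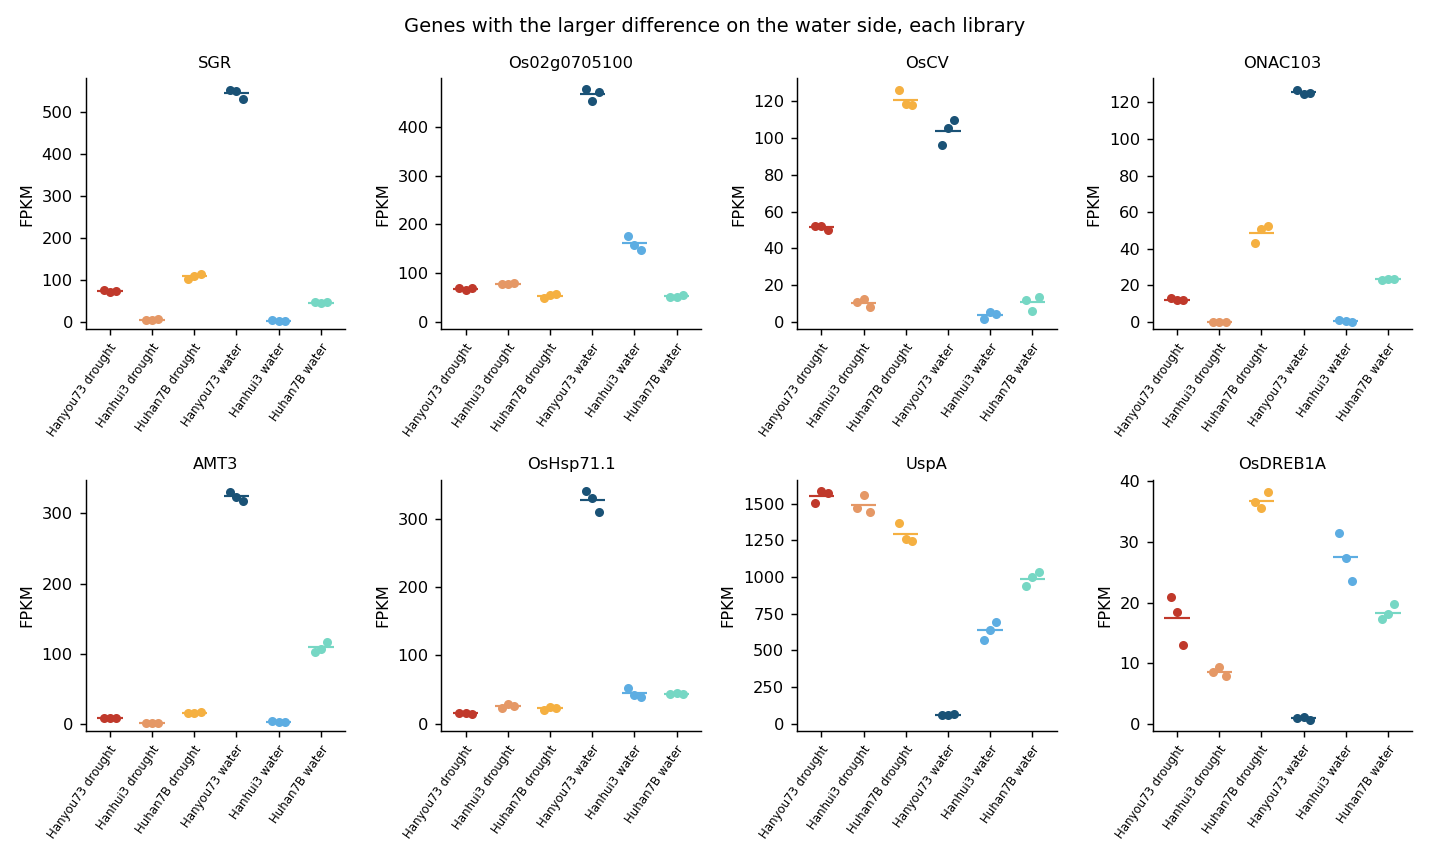
FPKM of 8 genes in each library (points) with the group mean (line), for droughted and then watered Hanyou73, Hanhui3 and Huhan7B. In the SGR, Os02g0705100, ONAC103, AMT3 and OsHsp71.1 panels watered Hanyou73 lies above all other groups, in the OsCV panel it is second to droughted Huhan7B, and in the UspA and OsDREB1A panels it lies below all other groups.

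Nitrogen and proline genes went both ways, and those named here had the largest interactions of their lists. AMT3 (Os03g0838400), an ammonium transporter, stood at 8.05, 8.78 and 8.42 FPKM in droughted Hanyou73, against 0.71, 0.54 and 0.62 in droughted Hanhui3 and 15.4, 15 and 16.4 in droughted Huhan7B. The watered leaves held 331, 324 and 318 FPKM in Hanyou73, 3.15, 2.27 and 2.67 in Hanhui3 and 103, 107 and 116 in Huhan7B. It fell in all lines, most in the hybrid, and the interaction was -3.16 ± 0.09 (SE). OsGS1 (Os02g0735200), a cytosolic glutamine synthetase that reassimilates ammonium, had -1.74 ± 0.09 (SE), from 313 ± 3.7 FPKM in watered Hanyou73, against 91.3 ± 13.9 in watered Hanhui3 and 172 ± 0.582 in watered Huhan7B (SD, n = 3). OsGLT2 (Os05g0555600), a glutamate synthase, was the reverse, with 32.4 ± 1.67 FPKM in watered Hanyou73, against 349.9 ± 5.14 in watered Hanhui3 and 280.3 ± 2.57 in watered Huhan7B (SD, n = 3), and an interaction of 2.54 ± 0.04 (SE). The whole list had 6 of 28 genes higher and 9 lower, with 53.6% called, against 58.3% of all tested genes. OsProDH (Os10g0550900), which degrades proline, stood at 14.3, 15.1 and 15.7 FPKM in droughted Hanyou73, against 25.7, 23.7 and 24.8 in droughted Hanhui3 and 25.4, 28 and 27.8 in droughted Huhan7B. Water levels were 180.3, 178 and 183 FPKM in Hanyou73, 20.4, 19.3 and 15.8 in Hanhui3 and 37, 36.2 and 38.4 in Huhan7B. The hybrid was the lowest line under drought and the highest in water, and the interaction was -3.48 ± 0.09 (SE). P5CS2 (Os01g0848200), on the synthesis route, had 1.75 ± 0.09 (SE). Of the 5 proline genes 4 were higher and 1 lower, and 2 and 1 with median-ratio scaling.

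Both genes of the glyoxylate cycle, which turns fatty acid carbon into sugar precursors, had a lower interaction. The isocitrate lyase gene Os07g0529000 stood at 10.9, 9.62 and 9.46 FPKM in droughted Hanyou73, against 1.7, 0.86 and 0.92 in droughted Hanhui3 and 118, 136 and 138 in droughted Huhan7B. In water it stood at 24.8, 25.6 and 24.7 FPKM in Hanyou73, 0.15, 0.31 and 0.04 in Hanhui3 and 4.02, 3.61 and 3.85 in Huhan7B. The watered hybrid was above both parents, yet the strong rise belonged to Huhan7B, with a response of 4.77 against -1.25 in Hanyou73. The interaction was -4.07 ± 0.15 (SE), and for malate synthase, MS (Os04g0486950), -2.79 ± 0.13 (SE). When the parents' FPKM were averaged before logs, these were -5.724 and -3.875. MS averaged 16.1 ± 1.49 FPKM in droughted Hanyou73, against 2.41 ± 0.153 in droughted Hanhui3 and 57.9 ± 3.69 in droughted Huhan7B (SD, n = 3). In water it averaged 17.1 ± 0.286 FPKM in Hanyou73, against 0.757 ± 0.224 in Hanhui3 and 1.75 ± 0.345 in Huhan7B (SD, n = 3). Its water side was 3.05 and its drought side 0.27, and the hybrid's own response of -0.09 was not called.

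Glutathione S-transferases, which conjugate reactive compounds, leaned to lower interactions. Of 68 tested, 36 had a lower interaction and 12 a higher one, with a median of -0.52, a median water side of 0.98 and a median drought side of 0.35. The medians of the sides over all tested genes were 0.14 in water and 0.31 under drought. OsGSTU6 (Os01g0558100) averaged 144 ± 13.6 FPKM in watered Hanyou73, against 4.84 ± 0.185 in watered Hanhui3 and 38.3 ± 1.54 in watered Huhan7B (SD, n = 3), with -2.60 ± 0.12 (SE). OsGSTU42 (Os01g0950300) and OsGSTU9 (Os10g0529400) had -2.41 ± 0.11 and -2.41 ± 0.19 (SE). Among heat shock proteins OsHsp71.1 (Os03g0276500), a cytosolic HSP70 chaperone, stood at 15.3, 16.2 and 14.7 FPKM in droughted Hanyou73, against 23.6, 28.1 and 25.8 in droughted Hanhui3 and 20.5, 24 and 22.8 in droughted Huhan7B. In watered leaves it stood at 340.0, 331 and 310.1 FPKM in Hanyou73, 52.6, 41.5 and 39.3 in Hanhui3 and 43.2, 45.2 and 43.6 in Huhan7B. The hybrid lay below all parental libraries under drought and above all of them in water, and the interaction was -3.47 ± 0.11 (SE). OsHsp24.1 (Os02g0758000) and OsHSP82A (Os08g0500700) had -2.14 ± 0.13 and -1.79 ± 0.08 (SE), while the list as a whole had 7 of 40 higher and 12 lower. Called genes made up 47.5% of the heat shock list, against 58.3% of all tested genes.

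Further genes of the stricter water class were high in the watered hybrid and have varied roles. Hsr203j (Os05g0410200), a carboxylesterase, averaged 147 ± 4.61 FPKM in watered Hanyou73, against 10.9 ± 1.2 in watered Hanhui3 and 14.3 ± 0.547 in watered Huhan7B (SD, n = 3), with -3.08 ± 0.11 (SE). XBOS36 (Os06g0128700), a probable ubiquitin ligase, had -3.04 ± 0.08, and Os06g0210000, annotated as a WAT1-related membrane protein, -3.23 ± 0.22 (SE). The silicon channel LSI6 (Os06g0228200) had -2.96 ± 0.09, the vacuolar iron transporter OsVIT2 (Os09g0396900) -3.21 ± 0.21 and Os04g0432100, annotated as a GRAS factor of the RAM1 type, -3.48 ± 0.14 (SE), or -5.40 with a pseudocount of 0.1. IIP3 (Os02g0575700) had -3.09 ± 0.12 (SE).

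Other water-side genes were low in the watered hybrid. UspA (Os05g0355400), a universal stress protein, stood at 1502, 1583 and 1571 FPKM in droughted Hanyou73, against 1468, 1558 and 1444 in droughted Hanhui3 and 1369.7, 1257 and 1244 in droughted Huhan7B. Water levels were 61.2, 56 and 66.3 FPKM in Hanyou73, 573, 641 and 692 in Hanhui3 and 936, 996 and 1032 in Huhan7B. The watered hybrid lay far below every other library, and under drought the lines were close. The interaction was 3.84 ± 0.08 (SE), with a water side of -3.67 and a drought side of 0.16.

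OSRR9 (Os11g0143300), a type A cytokinin response regulator, stood at 49.5, 57.7 and 54 FPKM in droughted Hanyou73, against 65.3, 73.3 and 64.1 in droughted Hanhui3 and 26.5, 25.6 and 27.1 in droughted Huhan7B. The watered leaves held 12.3, 11.5 and 12 FPKM in Hanyou73, 106, 125 and 127 in Hanhui3 and 40.7, 38.9 and 35 in Huhan7B. It rose in the hybrid and fell in each parent, with an interaction of 2.74 ± 0.09 (SE). RR6 (Os04g0673300), of the same class, had 2.16 ± 0.10 (SE) and the same directions. OsLOX1 (Os02g0194700), a plastid lipoxygenase that starts jasmonate synthesis, stood at 117, 109 and 111 FPKM in droughted Hanyou73, against 309, 302 and 299 in droughted Hanhui3 and 492, 577 and 601 in droughted Huhan7B. Water levels were 3.11, 3.14 and 2.81 FPKM in Hanyou73, 344, 283 and 248 in Hanhui3 and 183, 180.2 and 183 in Huhan7B, so the hybrid was below both parents on both sides, and the interaction was 3.98 ± 0.11 (SE). The jasmonate list as a whole leaned the other way, with 8 of 37 higher and 18 lower. The water channel gene Os04g0233400, annotated as PIP2-6, had 2.22 ± 0.11, OsFWL8 (Os03g0830300), annotated as a cell number regulator, 2.47 ± 0.41 and ERF130 (Os05g0497200) 2.24 ± 0.26 (SE), or 3.82 with a pseudocount of 0.1. Of 29 aquaporins 7 were higher and 11 lower, with 62.1% called, against 58.3% of all tested genes.

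Genes of the Calvin cycle, which fixes carbon dioxide, belonged here too. Of 22 tested, 16 were higher and 2 lower, with a median of 0.62. The hybrid lay under the parental mean on both sides, with a median water side of -1.10 and a median drought side of -0.36, and the water side was the larger in 13. The Rubisco small subunit gene Os12g0274700 stood at 2499.8, 2505 and 2509 FPKM in droughted Hanyou73, against 9176, 8758 and 9057 in droughted Hanhui3 and 3083, 3145 and 3123 in droughted Huhan7B. The watered leaves held 394, 359.6 and 395 FPKM in Hanyou73, 5178, 5231 and 5348 in Hanhui3 and 1657, 1596 and 1583 in Huhan7B. Every hybrid library was below every parental library of its condition, by more in water, and the interaction was 1.84 ± 0.04 (SE). RbcS5 (Os12g0291400) had 1.40 ± 0.03, with a drought side of 0.23, and RbcS3 (Os12g0291100), named after its values were seen, 1.34 ± 0.04 (SE). The small subunit genes are near-identical, so their single values are uncertain.

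OsRcaII (Os11g0707000), Rubisco activase, also named after its values were seen, was low in the hybrid on both sides with little interaction. It averaged 205 ± 13.8 FPKM in droughted Hanyou73, against 7264 ± 265 in droughted Hanhui3 and 6300.0 ± 339 in droughted Huhan7B (SD, n = 3), an offset in which, as for PsbR, the part of read mapping was not tested. Its water side was -4.92, its drought side -5.04, and its interaction of -0.12 ± 0.06 (SE) was not called, although median-ratio scaling gave -0.29 (limma, adjusted p = 0.00179). Of 22 starch synthesis genes, 17 were higher and 2 lower, with a median water side of -0.49 and a median drought side of 0.39. The medians over all tested genes were 0.14 in water and 0.31 under drought. OsBEIIa (Os04g0409200), a branching enzyme, had 1.02 ± 0.06, and SSIIIB (Os04g0624600), a starch synthase, -1.62 ± 0.05 (SE). Of 28 photorespiration genes, 13 were higher and 4 lower, but 11 and 9 with median-ratio scaling. In this list 60.7% were called, near the 58.3% of all tested genes. OsSHM1 (Os03g0738400), a serine hydroxymethyltransferase, had 1.43 ± 0.04 (SE).

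**Figure D4:**
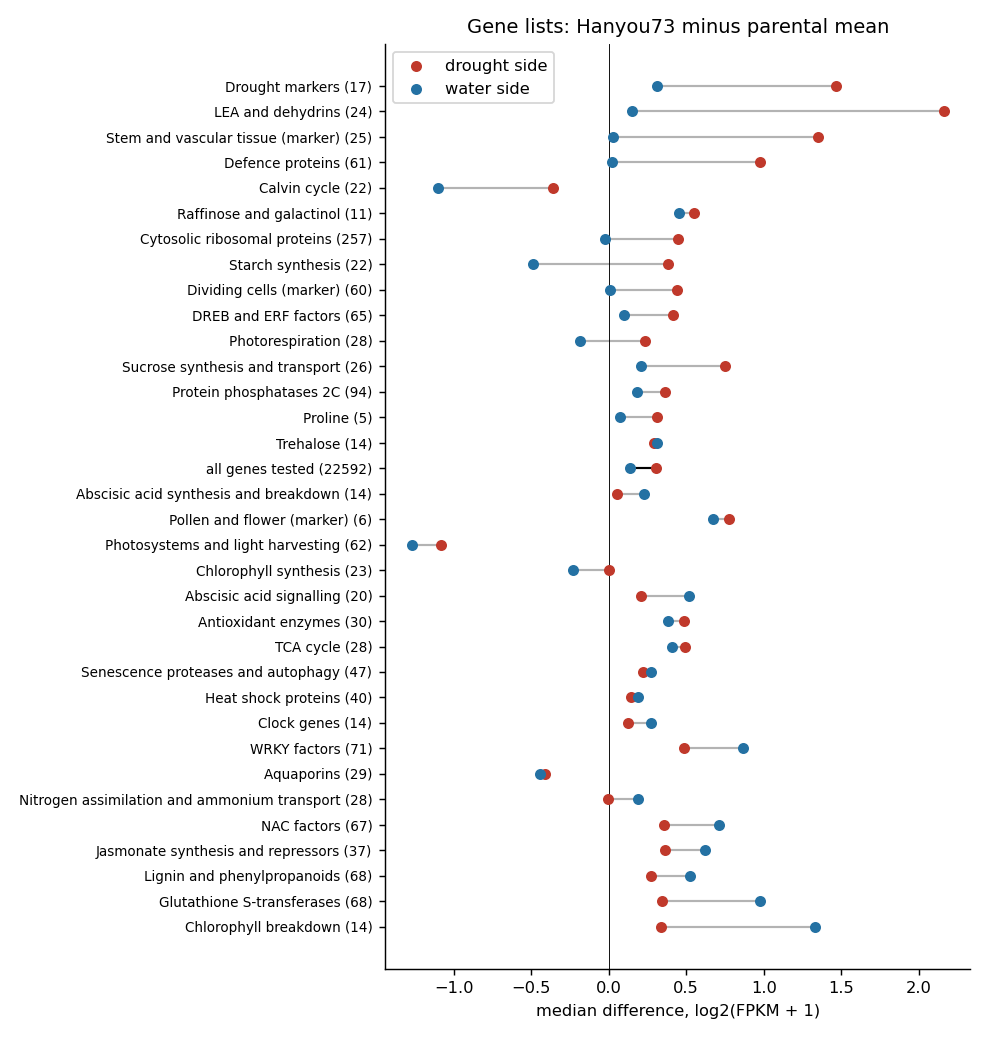
Median drought side (red) and median water side (blue) of each gene list with at least 5 tested genes, with the number tested in brackets; both are Hanyou73 minus the parental mean on log2(FPKM + 1), and lists are sorted by median interaction. LEA and dehydrins have the widest gap to the right (2.16 under drought and 0.15 in water), and chlorophyll breakdown the widest with the blue point on the right (0.34 under drought and 1.33 in water).

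Among the other lists, ribosomal proteins and markers of dividing cells leaned to higher interactions. Of 257 cytosolic ribosomal protein genes, 188 were higher and 4 lower with a median of 0.49, and 155 and 9 with median-ratio scaling. Their median response was 0.49 in Hanyou73, 0.42 in Hanhui3 and -0.36 in Huhan7B. Of 60 markers of dividing cells, 33 were higher and 4 lower (25 and 10 with median-ratio scaling). Their summed level over 117 listed genes was 11530 to 11830 FPKM in droughted Hanyou73, 7425 to 7634 in droughted Hanhui3 and 9265 to 9898 in droughted Huhan7B. In water it was 8259 to 8770 FPKM in Hanyou73, 5194 to 5359 in Hanhui3 and 14380 to 14680 in Huhan7B, and its part in the counts was not tested. Of 28 TCA cycle genes 9 were higher and 6 lower (5 and 8 with median-ratio scaling), of 30 antioxidant genes 13 and 12, of 14 trehalose genes 5 and 6, and of 14 clock genes 2 and 7. The called shares of these lists were 53.6%, 83.3%, 78.6% and 64.3%, against 58.3% of all tested genes. Of 3 grain markers 0 were higher and 1 lower, and of 6 pollen and flower markers 1 and 2. Grain markers summed to 111.9 to 117.0 FPKM in droughted Hanyou73, against 100.8 to 116.1 in droughted parental libraries. Most of the sum in each group was a single gene, Os05g0116000, annotated as a glutelin. Under drought it averaged 102.7 FPKM in Hanyou73, 91.0 in Hanhui3 and 102.6 in Huhan7B. Of 56 listed grain markers, 31 were at 0 in all of droughted Hanhui3, against 44 in droughted Hanyou73 and 49 in droughted Huhan7B. In water these numbers were 45 in Hanyou73, 45 in Hanhui3 and 47 in Huhan7B. Pollen and flower markers summed to 509 to 532 FPKM in droughted Hanyou73, against 302 to 377 in droughted parental libraries. In water grain markers summed to 128 to 131 FPKM in Hanyou73, against 85.0 to 97.4 in parental libraries, and pollen and flower markers to 716 to 784 FPKM in Hanyou73, against 303 to 467 in parental libraries. The part of these markers in the water-side calls was not tested.

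The mean of the parents can hide a difference between them, so the hybrid's response was also set against each parent. These comparisons share the hybrid's libraries. The response differed from that of Hanhui3 in 11231 genes (49.7%) and from that of Huhan7B in 14133 (62.6%). It lay beyond both parents in the same direction in 4487 genes above (19.9%) and 2521 below (11.2%). Over all tested genes the hybrid's response exceeded that of Hanhui3 by a median of 0.07 and that of Huhan7B by 0.27 in log2. These counts are on the deposited scale, and the excess of higher interactions depended on the scaling. Among called interactions, 3834 differed from Huhan7B alone, 1858 from Hanhui3 alone, 357 from both in opposite directions and 113 from neither. OsLEA3-1 showed how uneven this can be, with a response 4.86 ± 0.17 above that of Hanhui3 and 0.94 ± 0.17 above that of Huhan7B (log2, SE). Rab16A was more even, at 3.81 ± 0.20 above Hanhui3 and 4.79 ± 0.20 above Huhan7B (log2, SE).

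Among genes with a called interaction, Hanyou73 rose while both parents fell in 173, and it fell while both rose in 156, each response called by itself. The cytokinin regulators OSRR9 and RR6 and the small heat shock protein HSP18.8 (Os07g0517100) were of the first kind. SGR, OsRCCR1, OsPAO, NYC1, NYC3, OsCV, SAPK7, PAP2 and Lhcb1.1 were of the second kind. HSP18.8 stood at 11, 9.88 and 10.1 FPKM in droughted Hanyou73 and 7.25, 6.26 and 8.89 in watered Hanyou73. It stood at 63.3, 59.8 and 56.9 FPKM in droughted Hanhui3 and 100.4, 110.4 and 112 in watered Hanhui3, and at 34.2, 33.4 and 34.6 in droughted Huhan7B and 50.4, 44.3 and 52.2 in watered Huhan7B. All hybrid libraries lay below all parental ones, and the interaction was 1.10 ± 0.11 (SE).

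**Figure D5:**
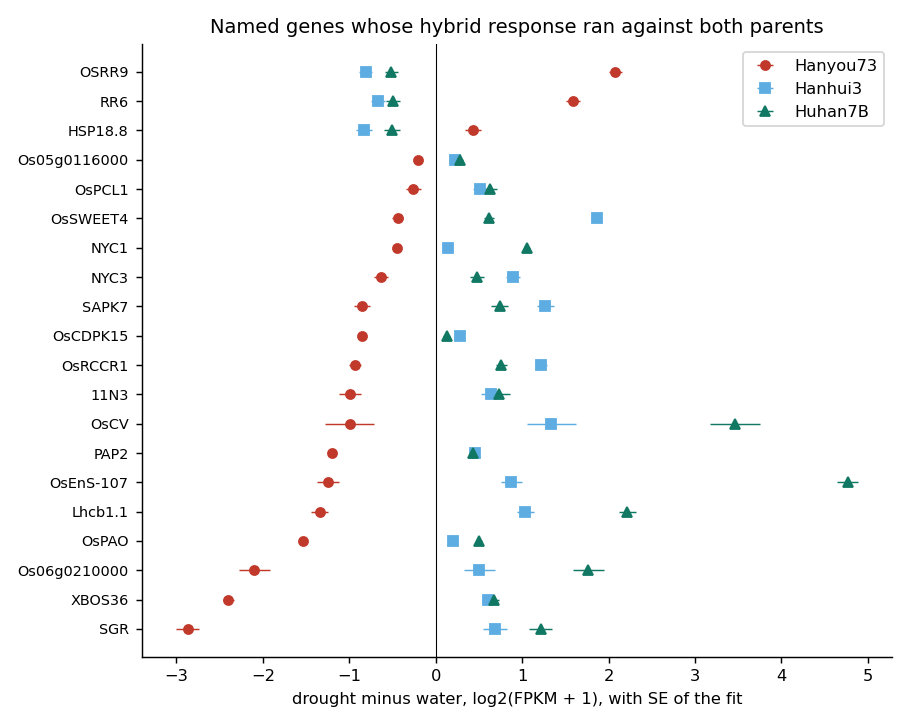
Drought response (drought minus water on log2(FPKM + 1), with the SE of the fit) of each genotype for the named genes in which Hanyou73 moved against both parents. OSRR9 and RR6 lie right of 0 in Hanyou73 and left of 0 in both parents, and SGR lies at -2.87 in Hanyou73, 0.68 in Hanhui3 and 1.21 in Huhan7B.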

How the data were processed

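Polyadenylated RNA of flag leaves was sequenced as stranded paired-end libraries, per the labels' protocols. Per the submitters' processing notes, fastp, HISAT2, StringTie, RSEM and DESeq2 were used with the IRGSP-1.0 build; versions, settings and the strand used in counting are not given in the sources used here. The values deposited by the authors are taken as FPKM. The unit was inferred, since they carry decimals, sum to 958893 to 1140989 per library and step with gene length. Counts were not used. Steps between low values (whole within 0.1 for 69.4% to 76.4% of values, where chance gives 20%) gave 13.3 to 16.4 M fragments.

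From these values, the mean log2(FPKM + 1) of each of 6 groups was fitted with limma 3.58.1 (R 4.3.3) and an intensity trend. A filter of FPKM 1 in 3 libraries was applied after removal of 994 genes for structural RNAs. Contrasts were tested two-sided, and errors are the SE of the fit or the SD over 3 libraries. The script was tested on simulated data. A log2 change from a level near 0 depends on the pseudocount and is no bound.

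Symbols and products came from the file and, for 12188 genes, a RefSeq table of another assembly, so no coordinates or sequences are given. From 35 lists, members were matched by symbol or product. Named genes were the called genes with the largest interaction in size, so they are extremes and not typical members of their class or list. Up to 8 with a symbol were taken per direction and side of the stricter split, with a highest group mean of at least 10 FPKM. Up to 4 were taken per list, with at least 5 FPKM. Genes just inside and just outside the stricter split were added, and all drought markers whatever their result. Genes named outside this rule are marked as such. The comparison, the lists and the rules were chosen with earlier results of these data known. Alternatives were other scalings, filters and pseudocounts, a replicate block, leaving out each library, and averaging parental FPKM before logs.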

Additional observations from a re-analysis of the deposited data

Results flagged for a closer look

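Among the named genes with a called interaction, 20 had a Hanyou73 drought response called in a direction opposite to the called responses of both parents. A called interaction was part of the rule that picked these genes and is no separate support. In the chlorophyll breakdown route the interaction was -3.82 for SGR, -1.92 for OsRCCR1, -1.88 for OsPAO, -1.31 for NYC3 and -1.05 for NYC1. It was -3.40 for OsCV, -1.65 for PAP2 and -2.97 for Lhcb1.1, all plastid proteins.

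Among transporters it was -1.68 for OsSWEET4, -1.68 for 11N3 and -3.23 for Os06g0210000. Among kinases and ligases it was -1.86 for SAPK7, -1.06 for OsCDPK15 (Os05g0585500), a calcium-dependent kinase, and -3.04 for XBOS36. It was -0.83 for OsPCL1 of the clock, -4.07 for the isocitrate lyase gene Os07g0529000 and -0.45 for Os05g0116000, annotated as a glutelin.

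The hybrid rose against falling parents in 3 of the genes, with interactions of 2.74 for OSRR9, 2.16 for RR6 and 1.10 for HSP18.8. Groups of 3 libraries are too small for a test of single outlying libraries.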

How the results depend on the processing

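Of 338 recomputed counts over all genes, 337 stayed within 1.5 times the reported value. The exception was the drought class of the stricter split, which held 599 genes with a filter of 5 FPKM, a setting that tests fewer genes. Median-ratio scaling stayed within that limit, with 5861 higher and 5995 lower interactions against 8757 and 4413 reported, yet the excess of higher calls was lost. Of 1680 recomputed list counts, 52 moved beyond the limit. Higher interactions numbered 8256 with a pseudocount of 0.1, 7226 with the filter of 5 FPKM and 9272 with no filter. They numbered 7592 with libraries rescaled to a common sum, and 8140 to 8961 when each library was left out. Replicate numbers did not pair the samples (0 of 45 same-numbered pairs correlated over 0.1). With a replicate block 8610 interactions were higher and 4364 lower. Averaging parental FPKM before logs gave 1875 higher and 1308 lower at 2-fold or more, with no test. Counted in the same way with no test, the main fit gave 1860 higher and 1346 lower. This averaging moved 53 values of named genes by at least their SE. The interaction of OsJRL (Os01g0348900) turned to -1.60 with a pseudocount of 0.1, and the cause was not tested. Of the named genes' values, 52 of 4471 lost their call, nearly all of them of OsWRKY16, OsP5CR, Os09g0570850 and Os05g0581900, which lost it under several settings or without single libraries. Genes under about 1 FPKM rest on few fragments at this depth, and their log2 values are the least certain.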
